A study of Oryza sativa Japonica Group with 10 samples.

Results

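The genes described here are the 150 rice genes whose transcript signal stood highest above every other condition at 24 h of low phosphate. They were selected on measured values. Each gene with a probe set of its own was represented by its brightest such probe set, and its score was the lower of the 2 log2 signals at 24 h minus the highest log2 signal among the other 8 arrays. Genes needed a signal of at least 200 on both 24 h arrays, and the 150 highest scores above 0 were kept, with OsLHY, OsSWEET2b and the OsPIP and OsTIP aquaporins left out by rule. Of 17905 genes with a probe set of their own, 11837 had both 24 h signals at 200 or more, 2368 of these had a score above 0, and 150 were kept. Because the 24 h signals chose these genes, their 24 h levels are a description and carry no test.

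Seedlings of the japonica cultivar Zhonghua 10, 1 week old, were grown with sufficient phosphate (control) or put into phosphate-deficient solution for 6, 24, 48 or 72 h. RNA from 2 samples per group, which the labels call biological replicates from independent plants, was hybridised to Affymetrix rice arrays, 10 arrays in all. There was no phosphate-sufficient group for each time, only 1 control group, and the sources used here do not give the time of day of any harvest, so duration of treatment and harvest time cannot be told apart. The labelled tissue is seedlings with no further division, so a lower signal from fewer cells of a type and one from less RNA per cell cannot be told apart either.

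Phosphate is a macronutrient that plants take up as inorganic phosphate and use in nucleic acids, membrane lipids, ATP and signalling. Plants short of it remodel root growth, phosphate uptake and membrane lipids over days, while transcripts of carbon and nitrogen metabolism, of abscisic acid and calcium signalling and of heat and drought protection also follow the day cycle and short-lived stress.

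All 10 arrays had the same trimmed mean signal, 500.1, and median signals between 47.6 and 54.2 except at 72 h, where they were 69.3 and 68.5. The 3′/5′ ratio of the rice actin control probe sets, a measure that rises with RNA breakdown or short labelled product, was 2.00 and 1.73 on the log2 scale at 24 h. It was 2.06 and 2.02 in the control, 3.23 and 3.68 at 6 h, 2.54 and 2.3 at 48 h, and 5.34 and 6.86 at 72 h. The same ratio of the bacterial dap control probe sets was 1.27 and 1.16 at 24 h, 1.91 and 1.71 in the control, 3.68 and 3.75 at 6 h, 2.28 and 2.07 at 48 h, and 5.79 and 6.73 at 72 h. On both measures the 72 h arrays lay far above the rest and the 24 h arrays below the control arrays. On the first, 1 of the 24 h arrays was close to the control (2.00 against 2.02). The part of these ratios in the results was not tested. Centring each array on its median signal, in place of the authors' scaling, lowers every log2 change of 72 h against the control by 0.50 and of 72 h against 48 h by 0.51, and every change of 24 h against the control by 0.10. Single 72 h values below are with the authors' scaling, and it is said where centring ends a call. Per marker list, the summed signal of 5 measured leaf genes of 9 listed was 38250 and 37903 at 24 h against 66458 and 67093 in the control, which came from the chlorophyll a/b-binding genes CAB2R and RCABP89, while RBCS and PSB28 were highest at 24 h and PORA, dim throughout, had 1.5 and 23.9 at 24 h and 11.6 to 62.5 on the other arrays. The summed signal of 6 measured root genes of 8 listed was 51014 and 50577 at 24 h against 29646 and 30469 in the control, with the aquaporins OsPIP2;4 and OsPIP2;5 higher and the silicon transporter Lsi1 lower. Summed signals of 6 germinating-seed genes of 9 listed were highest in the control, at 4360 and 4213, against 499.2 and 499.7 at 6 h, 1413 and 1301 at 24 h, 658.7 and 606.5 at 48 h, and 1466 and 1599 at 72 h. The amylase gene AMY3D made up most of the control value. Those of 2 dividing-cell genes of 4 listed ranged from 840.4 to 2028 over the 10 arrays. AMY1A and GluA-1 of the seed list stayed at 23.3 or below. The part of these shifts in the results was not tested.

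Scores of the 150 genes ran from 1.24 to 3.87 with a median of 1.55. Geometric mean 24 h signals lay between 219.6 and 21813, with a median of 2405, and the 24 h mean exceeded the control mean by 1.30 to 6.65 on the log2 scale, with a median of 2.65. All 150 were at least 2-fold over the control and 110 were at least 4-fold over it. The 2 arrays at 24 h lay close to each other, with a median SD of 0.06 on the log2 scale. The score uses the lower of them, so the rule itself favours genes with close 24 h arrays. In the other groups the median SD was 0.10 in the control, 0.08 at 6 h, 0.07 at 48 h and 0.11 at 72 h. Just inside the threshold stood OsAMT1;2, LOC4332251 and OsADF11 with scores of 1.24, and just outside it OsPIN9, OsSAP5 and OsNAC2 with 1.23, so the edge of the set is not a break in the data.

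**Figure D1:**
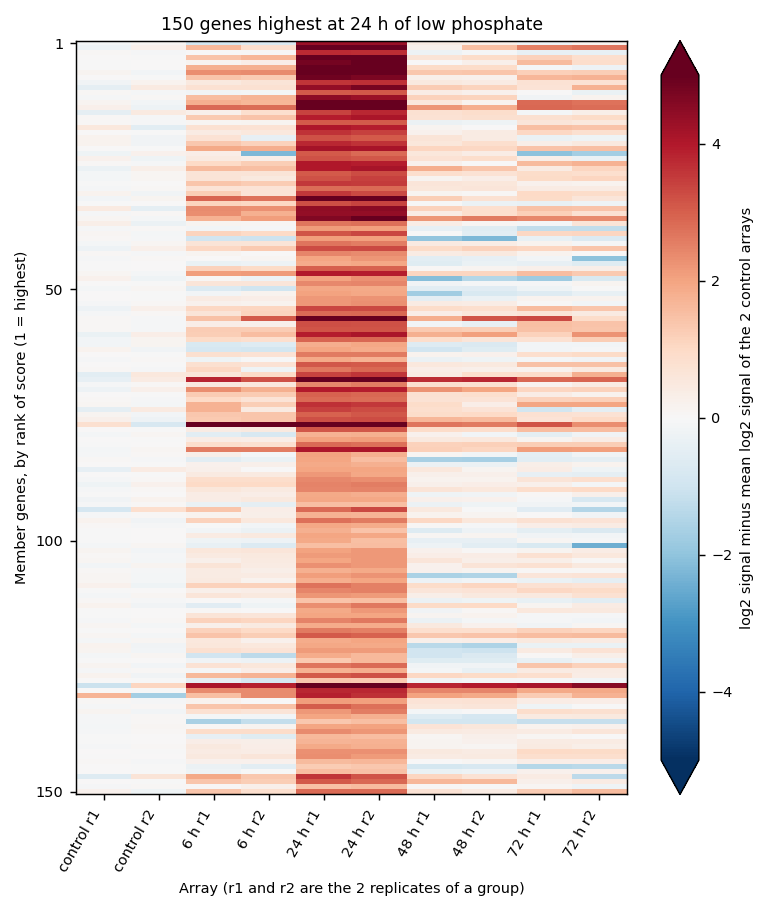
Log2 signal of the 150 genes on each of the 10 arrays, as the difference from the mean of the 2 control arrays. Rows are genes in the order of their score and columns are arrays, red is higher and blue lower than the control, and differences beyond 5 are drawn in the end colours. The 2 columns at 24 h are red in every row because the genes were chosen so; the other columns differ from gene to gene.

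The same scoring, applied to each group in turn, showed how many genes each group set apart. With a score above 1 there were 248 genes at 24 h, 79 in the control, 44 at 6 h and 4 each at 48 and 72 h. Above 2 there were 40 genes at 24 h, 4 in the control, 3 at 6 h and 0 at 48 and at 72 h. Above 0 the numbers lay closer together, 2379 at 24 h and between 1369 and 1909 in the other groups. These counts leave no gene out by name.

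**Figure D2:**
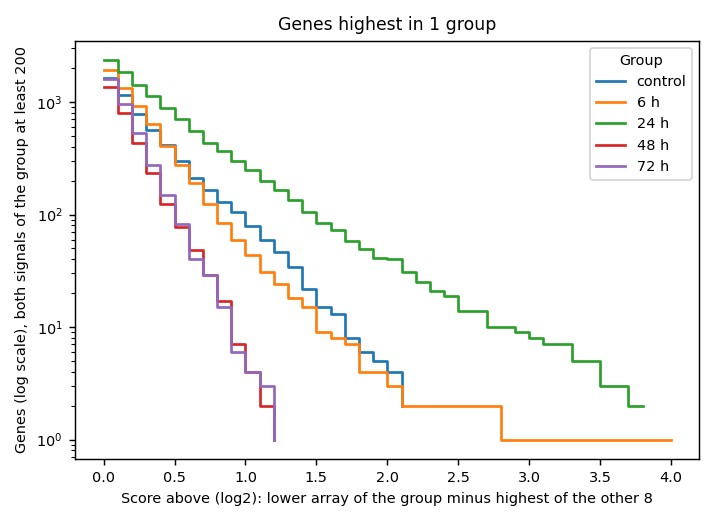
Number of genes (log scale) whose score in 1 group exceeds the value on the horizontal axis (log2), where the score is the lower array of that group minus the highest of the other 8. The 24 h curve lies above the others up to a score of 3.8, where it ends; a single gene at 6 h reaches beyond it.

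Only 35 of the 150 genes have a published name in the RefSeq gene table, and 115 carry an identifier alone, including the 11 highest scores. LOC4336779, the highest, had signals of 2205 and 2229 at 24 h, 107.0 and 119.3 in the control, 60.4 and 69.0 at 6 h, 150.9 and 140.0 at 48 h, and 95.7 and 126.6 at 72 h. Its 24 h arrays stood 19.6-fold over the control, and no other array came above 150.9. LOC4332308 had 298.8 and 238.1 at 24 h and 16.9 or less on each other array, where so low a signal has no reliable ratio. LOC4340883 gave 6233 and 6174 at 24 h against 362.6 to 497.9 elsewhere, a narrow range outside that time.

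Several of the top genes were already above the control at 6 h. LOC4327573 read 463.3 and 381.2 in the control, 2112 and 2158 at 6 h, 18259 and 18391 at 24 h, 1080 and 1087 at 48 h, and 959.8 and 978.3 at 72 h. It rose by 2.34 ± 0.08 (SE) at 6 h over the control (limma adjusted p = 2.01e-09) and remained higher at 48 h by 1.37 ± 0.08 (limma adjusted p = 2.54e-07). LOC4328240 and LOC4342182 also rose at 6 h, by 1.54 ± 0.18 and 1.76 ± 0.15 (limma adjusted p = 3.4e-05 and 1.98e-06). LOC4327187 was 1.34 ± 0.09 higher at 6 h and 1.70 ± 0.09 higher at 72 h (limma adjusted p = 3.34e-07 and 5.33e-08), but at 48 h its 0.25 ± 0.09 did not pass (limma adjusted p = 0.0604). The other genes among the 11 highest scores, LOC4330349, LOC4350861, LOC4350800 and LOC4330277, were 29.6-, 12.2-, 23.8- and 8.48-fold over the control at 24 h. They had at most 1.23 over the control on the log2 scale at any other time.

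Among the named genes the highest score was that of OsAPRL1, named as an APS reductase-like gene after the enzyme that reduces activated sulfate in sulfur assimilation. Its signals were 864.8 and 921.5 in the control, 2566 and 2862 at 6 h, 19576 and 18018 at 24 h, 1985 and 1946 at 48 h, and 791.7 and 1001 at 72 h. The 24 h arrays were 21.0-fold over the control, the 6 and 48 h arrays lay between, and the 72 h arrays overlapped the control. At 6 h it was higher by 1.60 ± 0.10 and at 48 h by 1.14 ± 0.10 (limma adjusted p = 1.62e-07 and 4.45e-06), and from 48 to 72 h it fell by 1.14 ± 0.10 (limma adjusted p = 4.45e-06). A further probe set of the same gene gave 13117 and 13494 at 24 h and 1957 or less elsewhere. At 72 h that probe set read 325.8 and 289.1, below its control of 590.3 and 644.8. The level of OsAPRL1 at 72 h against the control thus depends on the probe set. A dim probe set did not have both 24 h arrays highest. Of the 4 other APR-like genes tested, OsAPRL3 and OsAPRL4 rose at 24 h by 0.70 and 0.31, OsAPRL5 fell by 1.73, and OsAPRL2 did not pass at -0.16 (limma adjusted p = 6.91e-07, 0.0124, 2.9e-08 and 0.0925).

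Nitrogen uptake was represented by both measured members of the AMT1 group of high-affinity ammonium transporters and by a nitrate transporter. OsAMT1;1 read 912.8 and 1014 in the control, 2548 and 2648 at 6 h, 7754 and 6481 at 24 h, 1440 and 1465 at 48 h, and 819.3 and 937.3 at 72 h. OsAMT1;2 read 463.3 and 450.3, then 1192 and 1070, 3848 and 3376, 1426 and 1403, and 538.0 and 606.8 at the same times. Both went up in steps to 24 h and down again, and at 24 h they were 7.37- and 7.89-fold over the control. OsAMT1;1 rose by 1.43 ± 0.10 at 6 h and OsAMT1;2 by 1.31 ± 0.10 (limma adjusted p = 2.86e-07 and 6.19e-07), and both were lower at 72 h than at 48 h, by 0.73 ± 0.10 and 1.31 ± 0.10 (limma adjusted p = 0.000112 and 1.11e-06). OsNRT2.3, a high-affinity nitrate transporter gene, had 691.0 and 709.3 at 24 h and 117.6 to 239.8 on the other arrays, and at 6 h it fell by 0.66 ± 0.20 (limma adjusted p = 0.0233), a call that ended without the second control array (-0.56, limma adjusted p = 0.13) or the second 6 h array (-0.52, 0.149). The 6 ammonium transporter genes outside the set held OsAMT2;1 and OsAMT3;3, which rose at 24 h by 0.42 and 1.84 (limma adjusted p = 0.00373 and 0.0388), and 4 that did not pass.

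Both measured PDX1 genes, which encode the pyridoxal 5′-phosphate synthase that makes vitamin B6, were in the set. PDX12 read 1173 and 1012 in the control, 4657 and 4766 at 6 h, 16879 and 16678 at 24 h, 2291 and 2315 at 48 h, and 3139 and 2731 at 72 h. PDX11 read 6300 and 6026 in the control, 7185 and 7421 at 6 h, 22671 and 20986 at 24 h, 5068 and 5087 at 48 h, and 7605 and 6948 at 72 h. PDX12 stayed above the control at all other times, by 2.11 ± 0.08, 1.08 ± 0.08 and 1.43 ± 0.08 at 6, 48 and 72 h (limma adjusted p = 2.55e-09, 9.22e-07 and 6.78e-08), whereas PDX11 changed little, by 0.24 ± 0.06, -0.28 ± 0.06 and 0.24 ± 0.06 (limma adjusted p = 0.00448, 0.00239 and 0.00521). With median centring the change of PDX11 at 72 h was -0.26 (limma adjusted p = 0.0172), the opposite direction, and the 6 h call ended (0.21, limma adjusted p = 0.0574). Without the intensity trend in the fit none of the 3 calls held (limma adjusted p = 0.0696, 0.0534 and 0.0693). OsRIBA2, of riboflavin synthesis, was 3.82-fold over the control at 24 h, and its changes at 6, 48 and 72 h against the control did not pass.

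Phytoene synthase makes the first committed intermediate of the carotenoids, from which abscisic acid is also derived, and rice has 3 genes for it. OsPSY2 read 1031 and 1263 in the control, 2229 and 2067 at 6 h, 8503 and 8458 at 24 h, 2115 and 1729 at 48 h, and 1955 and 2658 at 72 h. OsPSY3 was dim, with 229.3 and 228.6 at 24 h and 43.7 to 82.9 on the other arrays. The third gene, OsPSY1, lies outside the set and rose at 24 h by 1.49 (limma adjusted p = 1.06e-08), while PDS and OsABA1 of the same pathway fell by 0.79 and 1.08 (limma adjusted p = 0.000297 and 0.00502). OsPSY2 rose by 0.91 ± 0.14 at 6 h (limma adjusted p = 0.000244), and OsPSY3 passed in none of the comparisons without 24 h arrays.

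Calcineurin B-like proteins (CBL) sense calcium and switch on their partner kinases (CIPK), which act on ion channels and transporters. OsCIPK25 had the largest ratio of the 4 kinase genes in the set, with 34.6 and 40.9 in the control, 280.2 and 248.2 at 6 h, 1188 and 1260 at 24 h, 88.6 and 63.8 at 48 h, and 73.2 and 56.6 at 72 h. It stood 32.5-fold over the control at 24 h and rose by 2.81 ± 0.26 at 6 h (limma adjusted p = 4.29e-06). OsCIPK01 had 4212 and 4190 at 24 h and 1134 to 1548 on the other arrays, OsCIPK17 had 3178 and 3022 against 764.8 to 1124, and OsCIPK32 had 4704 and 4565 against 1074 to 1862. These 3 kinases were 3.29-, 3.68- and 4.16-fold over the control at 24 h, and their other arrays differed among themselves by less than 2-fold. The sensor gene CBL2 (LOC4352701) had 5769 and 5503 at 24 h and 1564 to 2300 elsewhere, 2.86-fold over the control. Outside the set, 17 CIPK genes were tested at 24 h, of which 4 rose and 4 fell, with OsCIPK10 lowest at -3.95, and of 6 CBL genes 1 rose (CBL4, by 1.95, limma adjusted p = 7.9e-05) and 2 fell.

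Abscisic acid signalling runs through some of the type 2C protein phosphatases (PP2C), which hold the pathway off and are themselves induced by it. PP2C68 read 462.3 and 568.4 in the control, 302.2 and 326.6 at 6 h, 1799 and 1964 at 24 h, 324.3 and 312.3 at 48 h, and 467.8 and 468.6 at 72 h. OsPP2C09 had 4801 and 5844 at 24 h and 1139 to 1874 elsewhere. PP2C68 fell at 6 h by 0.71 ± 0.12 and at 48 h by 0.69 ± 0.12 (limma adjusted p = 0.000667 and 0.00106), so that it lay below the control on both sides of its 24 h level. OsHox24, a homeodomain-leucine zipper transcription factor gene, had the same course with a wider swing. It read 245.1 and 230.8 in the control, 123.2 and 115.9 at 6 h, 1003 and 974.0 at 24 h, 59.8 and 49.6 at 48 h, and 181.9 and 149.5 at 72 h. Its changes were -0.99 ± 0.20 at 6 h and -2.13 ± 0.20 at 48 h (limma adjusted p = 0.00194 and 7.91e-06), the latter the largest called fall of the set at 48 h, and it rose again by 1.60 ± 0.20 from 48 to 72 h (limma adjusted p = 7.8e-05).

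RAB16D, a dehydrin, and LEA19, another late-embryogenesis-abundant protein, belong to proteins that accumulate in drying seeds and in water-stressed tissue. RAB16D read 2483 and 2737 in the control, 2461 and 2383 at 6 h, 10362 and 8845 at 24 h, 1666 and 1459 at 48 h, and 3607 and 3620 at 72 h. LEA19 read 1316 and 1099, then 2074 and 1922, 5244 and 5223, 622.0 and 579.9, and 1630 and 1964 at the same times. At 48 h they were the lowest of all groups, with changes of -0.74 ± 0.09 and -1.002 ± 0.10 against the control (limma adjusted p = 3.88e-05 and 1.69e-05), and from 48 to 72 h they rose by 1.21 ± 0.09 and 1.57 ± 0.10 (limma adjusted p = 8.28e-07 and 4.79e-07). Of the other genes of the dehydrin list, OsDhn1 and RAB21 rose at 24 h by 2.53 and 1.18 (limma adjusted p = 1.84e-10 and 0.000104), and 3 did not pass, 1 of them the small GTPase gene OsRab5A, which the symbol pattern also caught.

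Heat shock factors are transcription factors, some of which switch on chaperone genes, and 3 of 20 measured were in the set. HSFC2A had 6025 and 6310 at 24 h and 986.0 to 1786 elsewhere, 4.58-fold over the control. HSFA6B had 797.6 and 784.8 at 24 h against 207.6 to 288.6, and HSFC1A 215.4 and 253.7 against 13.2 to 59.6. The changes of HSFC2A were 0.37 ± 0.07 at 6 h and -0.38 ± 0.07 at 48 h (limma adjusted p = 0.00121 and 0.00142), small movements beside its 24 h level. Of the 17 heat shock factor genes outside the set, 7 rose and 5 fell at 24 h, between OsHsf-11 at 2.73 and OsHsf-03 at -3.32.

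Among genes of carbon and energy metabolism, CFBP1, the cytosolic fructose-1,6-bisphosphatase of sucrose synthesis, read 857.9 and 848.2 in the control, 2045 and 2050 at 6 h, 6562 and 6230 at 24 h, 1432 and 1519 at 48 h, and 1092 and 969.5 at 72 h. It rose by 1.26 ± 0.07 at 6 h (limma adjusted p = 9.33e-08). A further probe set of CFBP1 read 349.4 and 350.6 in the control and 446.8 and 438.2 at 6 h, a smaller rise. At 72 h that probe set read 140.8 and 88.4, below its control, so the direction of CFBP1 at 72 h depends on the probe set. OsSWEET14, a sugar efflux transporter, had 12805 and 14368 at 24 h and 3051 to 4881 elsewhere. Outside the set 5 of 8 tested SWEET genes rose at 24 h and none fell, 1 of the 5 being OsSWEET2b, which the selection left out by name and which rose by 5.65 (limma adjusted p = 4.06e-07). OsAOX1A, the alternative oxidase that bypasses part of mitochondrial respiration, had 4739 and 5049 at 24 h and 1223 to 1836 elsewhere, and fell at 72 h by 0.46 ± 0.07 (limma adjusted p = 0.000422). Its fall of 0.26 ± 0.07 at 48 h (limma adjusted p = 0.0185) ended as a call with median centring (-0.25, limma adjusted p = 0.0549), without the first control array (-0.21, 0.127) and without either 48 h array.

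In the chloroplast group, OsFTSH2, a protease that removes damaged photosystem proteins, had 19830 and 19123 at 24 h and 4525 to 7126 elsewhere, 3.86-fold over the control. Its family relative OsFTSH1, outside the set, rose at 24 h by 1.56 (limma adjusted p = 4.12e-10), and among 8 FtsH genes tested outside the set 4 rose and 1 fell. CRYD, of the cryptochrome and photolyase family of blue-light flavoproteins, had 1988 and 1863 at 24 h and 178.3 to 403.4 elsewhere. Magnesium transport was represented by MHX1, a vacuolar magnesium and proton exchanger, with 2553 and 2265 at 24 h against 332.0 to 870.4, and by MRS2-A, with 4834 and 4265 against 963.0 to 1763. MRS2-A rose at 6, 48 and 72 h, by 0.55 ± 0.08, 0.43 ± 0.08 and 0.84 ± 0.08 (limma adjusted p = 0.000104, 0.000929 and 3.56e-06). MHX1 rose at the same times by 1.16 ± 0.14, 0.99 ± 0.14 and 0.73 ± 0.14 (limma adjusted p = 3.02e-05, 0.000146 and 0.00108), the last of which ended with median centring (0.23, limma adjusted p = 0.265). A further probe set of MHX1 read 358.3 and 376.5 in the control and 410.7 and 438.4 at 72 h, a smaller rise. Of 6 magnesium transporter genes outside the set, 4 rose at 24 h by 0.26 to 0.70 and MRS2-F fell by 0.56.

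CEBIP, the receptor that binds chitin fragments of fungal walls at the cell surface, had 8174 and 7978 at 24 h, 907.3 and 835.4 in the control, 1095 and 1034 at 6 h, 793.2 and 666.3 at 48 h, and 2462 and 2335 at 72 h. Among the named genes it had the largest rise from 48 to 72 h, 1.72 ± 0.09 (limma adjusted p = 6.88e-08). OsDWARF, a brassinosteroid oxidase of the last steps of hormone synthesis, read 392.0 and 319.2 in the control, 908.9 and 924.2 at 6 h, 2708 and 3062 at 24 h, 667.9 and 714.8 at 48 h, and 603.4 and 586.4 at 72 h. It rose by 1.37 ± 0.11 at 6 h (limma adjusted p = 1.31e-06) and at 48 and 72 h by 0.97 ± 0.11 and 0.75 ± 0.11 (limma adjusted p = 3.7e-05 and 0.000203), the last of which ended with median centring (0.25, limma adjusted p = 0.127). OsABCC13, an ABC transporter tied to phytate content in rice grain, had 2269 and 2188 at 24 h and fell at 6 h by 0.51 ± 0.10 (limma adjusted p = 0.00164). OsADF11, an actin-depolymerizing factor, was at 457.9 and 456.6 at 24 h against 56.2 to 193.8. OsENODL18, an early nodulin-like gene, and BGLU19, a β-glucosidase gene, were dim outside 24 h, at 121.1 or less and 88.7 or less, with 431.1 and 408.7 and with 240.9 and 333.9 at 24 h.

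**Figure D3:**
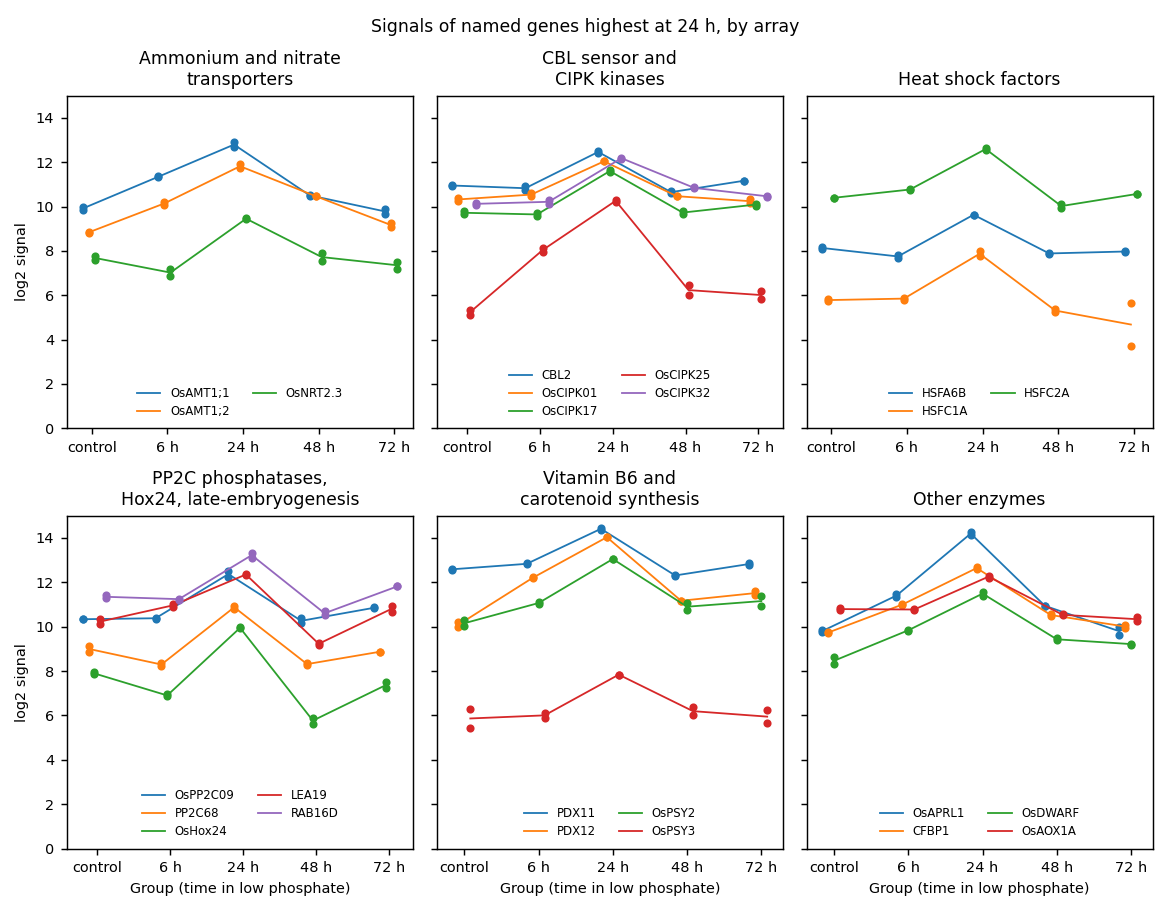
Log2 signal of 24 named genes of the set on each array by group. Points are single arrays and lines join the means of the 2 arrays of a group, with a small sideways shift per gene. Ammonium transporters, PDX12, CFBP1 and OsDWARF were above the control at 6 h, whereas OsHox24 and PP2C68 were below it at 6 and 48 h. Signals of different genes come from different probe sets, so heights are not compared between genes.

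What the genes did at 6, 48 and 72 h was measured on arrays that entered the score as a ceiling. The rule held all 8 of them below the 24 h arrays, including the control arrays that are the baseline of the comparisons with the control. In these comparisons 149 of the 150 genes could be tested. The exception, LOC4332308, had a mean signal under the level of 23.9 required for testing. That level was set on all 10 arrays, and LOC4352878, counted in the 149, reached it only through its 24 h signals. With the filter on the 8 arrays other than 24 h, 148 genes were tested. At 6 h 88 of 149 genes (59.1%) were called higher than the control and 12 (8.1%) lower, at a limma adjusted p under 0.05. Among all 11836 tested genes with both 24 h signals at 200 or more (called all tested genes below), 33.1% were called higher and 28% lower in that comparison. The median of the 150 genes was 0.56 over the control on the log2 scale, against 0.05 for those genes as a whole. All tested genes as a whole were not held to the rule, so shares and medians set beside theirs are not of like genes. How far the selection set the differences was not tested. With 2 arrays per group, these p-values measure the spread between arrays, and how far that reflects separate plants cannot be seen from the files.

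At 48 h 63 genes (42.3%) were called higher than the control and 24 (16.1%) lower, against 33.3% and 21.5% of all tested genes. The median was 0.36, against 0.11. At 72 h 77 genes (51.7%) were called higher and 12 (8.1%) lower, against 35.3% and 24.6%, and the median was 0.39, against 0.10. The 72 h values depend on the scaling of those arrays, which have a higher median signal. With each array centred on its median in place of the authors' scaling, 40 genes were called higher and 52 lower at 72 h. The median of all tested probe sets moved from 0.16 to -0.34 and that of the 149 tested genes of the set from 0.38 to -0.12. The share of all genes called with centring was not counted. Without the first control array the number called lower at 72 h was 6.

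From 48 to 72 h 49 genes (32.9%) were called higher and 25 (16.8%) lower, against 25% and 23.5% of all tested genes. With median centring those numbers were 15 and 72, so the direction of the set between these times depends on the scaling. Centring moved the median of all tested probe sets from 0.06 to -0.46 and that of the set from 0.10 to -0.41. The share of all genes called with centring was not counted. With the authors' scaling and a filter on the 8 arrays other than 24 h, 24 genes were called lower. Without the first 48 h array the number called lower was 16. At 24 h against the control 36.5% of all tested genes were called higher and 29% lower, a comparison in which the set has no count of its own since it chose them.

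**Figure D4:**
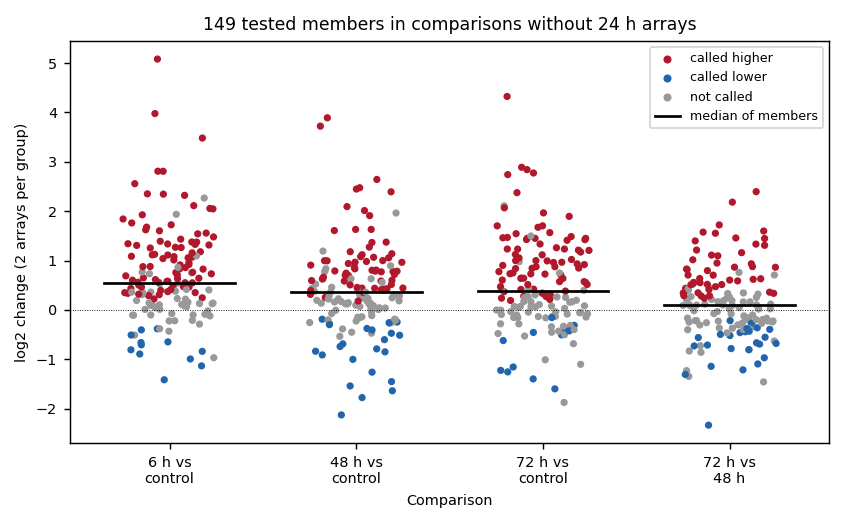
Log2 change of the 149 tested genes in the 4 comparisons that use no 24 h array, with the authors' scaling. Each point is a gene, coloured by its call at a limma adjusted p under 0.05, and the bars are medians. Medians lie above 0 in each comparison; median centring moves those of both 72 h comparisons below 0.

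Over the 3 other times, 46 of the 149 genes (30.9%) were called higher than the control at 6, 48 and 72 h, against 15.1% of all tested genes. Called higher at 6 h and at neither 48 nor 72 h, where they could be lower, were 13 genes (8.72%, against 7.64%). Called in neither direction at any of these times were 20 (13.4%, against 13.9%). Both shares were near those of all genes. In a count that can share genes with the 13, 10 (6.71%, against 4.07%) were higher at 6 h and lower at 48 or 72 h. None, 0, were lower at 6 h and higher later (against 5.16%), and 2 (1.34%, against 9.98%) were lower at all 3 times. After 24 h the next highest group mean was that at 6 h for 54 genes, 72 h for 51, 48 h for 28 and the control for 17. The lowest group was the control for 85 genes, 72 h for 29, 48 h for 24 and 6 h for 12. Patterns and rankings that include 72 h depend on the scaling of those arrays. With median centring 40 genes were called higher at 72 h, fewer than the 46 above, and the patterns were not counted with that scaling. All 3 comparisons share the same 2 control arrays.

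The genes with the largest changes in each comparison were mostly without names. At 6 h LOC4348272 read 866.8 and 864.5, against 44.8 and 14.6 in the control, 2610 and 2526 at 24 h, 164.5 and 154.9 at 48 h, and 228.6 and 127.8 at 72 h. It rose by 5.08 ± 0.41 at 6 h (limma adjusted p = 1.23e-06), with the second control array below the level of 23.9. Without the first control array the change was 5.89 and without the second 4.27, so its size rests on which dim control value is used. LOC4341990 and LOC9266169 had control signals of 1.8 to 8.1, too low for a ratio, and read 43.7 to 88.6 at 6, 48 and 72 h and 219.0 to 284.8 at 24 h. LOC9272626 read 83.2 and 58.1 in the control, 496.0 and 477.9 at 6 h, 3190 and 2910 at 24 h, 318.4 and 247.1 at 48 h, and 514.5 and 482.4 at 72 h, and rose by 2.84 ± 0.18 at 72 h (limma adjusted p = 1.85e-07).

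In the other direction, LOC4341691 fell by 1.41 ± 0.16 at 6 h, by 0.91 ± 0.16 at 48 h and by 1.16 ± 0.16 at 72 h (limma adjusted p = 2.23e-05, 0.000939 and 0.000124). It read 433.2 and 470.3 in the control, 146.6 and 195.5 at 6 h, 1148 and 1295 at 24 h, and 202.5 to 241.9 later, so 24 h was the one time at which it was above the control. LOC4331658, the other of 2 genes called lower at all 3 times, fell by 0.40 ± 0.11, 0.84 ± 0.11 and 1.40 ± 0.11 at 6, 48 and 72 h (limma adjusted p = 0.0144, 0.000135 and 1.57e-06). Its 6 h call ended without the first control array (-0.40, limma adjusted p = 0.0645), the second (-0.41, 0.055) or the second 6 h array (-0.29, 0.136). LOC4333949 fell by 1.13 ± 0.21 at 6 h (limma adjusted p = 0.00107). LOC4348192 fell by 1.78 ± 0.37 at 48 h and 1.26 ± 0.37 at 72 h, and LOC4341874 fell by 1.64 ± 0.26 at 48 h (limma adjusted p = 0.00303, 0.0185 and 0.000444). The 72 h call of LOC4348192 ended without the first control array (-1.03, limma adjusted p = 0.121) or the first 72 h array (-0.75, 0.145). LOC4343589 fell by 1.60 ± 0.37 at 72 h (limma adjusted p = 0.00498), where its 2 arrays read 290.9 and 92.3 and so lay far apart. Without the first of them the fall was 2.43 and without the second 0.77 (limma adjusted p = 4.04e-06 and 0.00615).

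Between 48 and 72 h the largest rise was that of LOC4348336, which read 277.0 and 209.4 at 48 h and 1316 and 1220 at 72 h, a change of 2.40 ± 0.14 (limma adjusted p = 1.57e-07). At 24 h it had 8029 and 8019, and in the control 204.6 and 167.9. LOC4331944 read 6760 and 7640 at 24 h, 532.7 and 573.2 at 48 h, and 2426 and 2594 at 72 h, a rise of 2.18 ± 0.09 from 48 h (limma adjusted p = 1.27e-08). A further probe set of LOC4331944 ran the other way between these times, with 859.0 and 920.6 at 48 h and 699.5 and 671.6 at 72 h, so the direction of this gene depends on the probe set. LOC4352878 had the largest called fall, from 49.0 and 42.2 at 48 h to 7.9 and 10.3 at 72 h. It was the 1 gene of the set that passed the filter for testing only through its 24 h signals (275.7 and 233.0), and its 72 h signals lie under the level of 23.9, so no test or ratio is given for it.

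**Figure D5:**
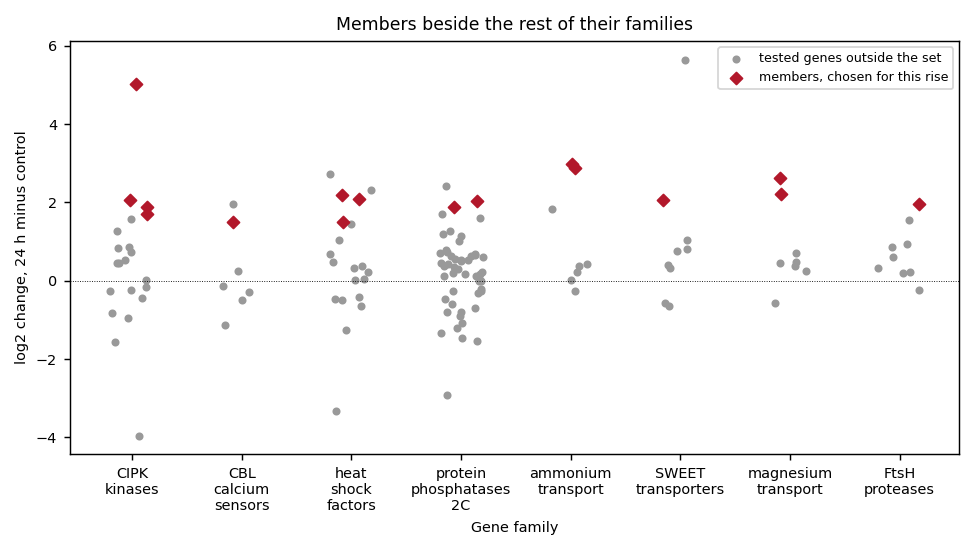
Log2 change at 24 h against the control of the genes of 8 families, with members of the set as red diamonds and other tested genes as grey points. Members are high because they were chosen so; other genes of the families spread to both sides of 0, and the grey point at 5.65 is OsSWEET2b, left out by name.

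For the families with a member in the set, genes outside it give a view of 24 h that the selection did not fix directly, although it did remove the most extreme genes from them. Of 49 tested PP2C genes outside the set 21 rose and 12 fell at 24 h, from OsPP2C11 at -2.92 to OsPP2C48 at 2.43. Of 30 homeobox genes 10 rose and 4 fell, of 8 brassinosteroid genes 2 rose and 2 fell, and of 7 actin-depolymerizing factor genes 2 rose and 2 fell. The broader lists were made from gene names. They also hold the CIPK, CBL, heat shock factor, PP2C and SWEET genes counted separately, so their counts are not further results. Outside the set, 14 of 62 tested genes of the calcium sensor and kinase list rose and 24 fell (median -0.14). On the abscisic acid list, which holds the PP2C genes whether or not they act in that pathway, 30 of 69 rose and 17 fell. Of 37 chaperone and heat shock factor genes 15 rose and 11 fell, and of 12 sugar transport genes 7 rose and 1 fell. Without these broader lists, 67 of 175 tested family genes outside the set (38.3%) rose and 36 (20.6%) fell. With them, 95 of 258 (36.8%) rose and 66 (25.6%) fell. Of the 11836 tested genes with both 24 h signals at 200 or more, 36.5% rose and 29% fell. Those include the set and needed a minimum 24 h signal, whereas the family genes did not, so these shares are not of like genes. Of 10 genes on a circadian clock list, none of them in the set, 1 rose and 8 fell at 24 h, with a median of -2.01 on the log2 scale. Its part in the results was not tested.

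Further probe sets of the same genes gave a second reading on the same arrays. Some carry the same target name as the probe set used, so they are not independent checks. There were 31 further probe sets for 25 of the 150 genes, and 22 had both 24 h arrays highest. The share of all probe sets with both 24 h arrays highest was not counted. Of the 19 with a mean signal of at least 200, 18 did, the exception being that of LOC4331944, and of the 12 dimmer ones 4 did. The selected genes lay on all 12 chromosomes, with 27 on chromosome 1 (18% of the set, against 14.45% of the genes with both 24 h signals at 200 or more) and 4 on chromosome 5 (2.67% against 8.46%). No pair of them were direct neighbours in the gene table.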

How the data were processed

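Each array has a deposited linear signal intensity for every probe set, which the authors made with GCOS and MAS5, per the submitters' processing notes (versions are not given in the sources consulted). Of 57381 probe sets, 123 were Affymetrix controls, and 22436 of the rest list a single gene in the platform annotation, 95 several and 34727 none. Gene names came from a RefSeq gene table of another assembly, so no coordinates are printed.

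No offset was added before log2. Group means were fitted to all 10 arrays with limma 3.58.1 in R 4.3.3 (eBayes with an intensity trend, 5 residual and 6.5 prior degrees of freedom) over the 34355 probe sets whose mean log2 signal lay above the 40th percentile. Tests were two-sided with Benjamini-Hochberg adjustment over these probe sets, and an adjusted p under 0.05 was a call. An SE is that of the fit. The number of arrays limits the precision of every value.

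The members and gene lists were chosen with earlier results of these data known. The lists for CIPK, CBL, heat shock factor, PP2C, SWEET, AMT1, magnesium, FtsH, vitamin B6, carotenoid, APR-like, brassinosteroid and actin-depolymerizing factor genes were added after values were seen, and support nothing. Named are all genes of the set with a published symbol, the 12 highest scores, the 3 on either side of the threshold, and the 3 largest called rises and falls of each comparison. Family genes outside the set were named after their values were seen. Promoter motifs and protein families were planned and not run, since no sequence tables were used here. The marker CYCB1-1 matched 2 genes and was not used.

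Same-numbered replicates did not deviate together: the correlation of replicate differences between groups ranged from -0.0086 to 0.0165 over the 10 pairs of groups, and 0 exceeded 0.1, so the numbers are not taken to pair samples. Alternatives were other normalizations, filters (1 of them, on the 8 arrays other than 24 h, added after seeing the data), offsets, sets of arrays, a replicate block and leaving out each array in turn.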

Additional observations from a re-analysis of the deposited data

Results flagged for a closer look

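Genes of the 24 h set differed between the later times: from 48 to 72 h, 49 of 149 tested genes (32.9%) were called higher and 25 (16.8%) lower (limma adjusted p under 0.05), a direct test of the difference between those times. Among all tested genes 25% were higher and 23.5% lower, so calls in either direction together were about as frequent as elsewhere. With each array centred on its median the numbers were 15 and 72. That centring moved the median of all tested probe sets to -0.46 and that of the set to -0.41, and the share of all genes called with it was not counted. With the authors' scaling and a filter on the 8 arrays other than 24 h, 49 of 148 genes were called higher and 24 lower. The 72 h arrays had the highest 3′/5′ ratios and median signals of the 10, and the part of these in the result was not tested.

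Probe sets with no listed gene also hold signals of this kind. Of 34727 such probe sets, 4073 had both 24 h signals at 200 or more, 885 of these had a score above 0, and 79 reached at least the lowest score in the set. The highest of them, 5.30, exceeded every score in the set; its signals were 1569 and 1385 at 24 h and at most 35.2 on the other 8 arrays. These probe sets carry no gene name here and were not part of the set.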

How the results depend on the processing

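Of the 150 genes, 144 were kept among the 150 highest scores after quantile normalization, 134 with median centring, 143 with the median of a gene's probe sets, 148 and 136 with signal minimums of 100 and 400, 146 with an offset of 16, 133 to 148 without single arrays, and 105 when the score was taken against the mean of the other arrays. With median centring 40 genes were called higher and 52 lower at 72 h against the control, and 15 higher and 72 lower at 72 h against 48 h. Without single arrays the counts called higher ranged from 80 to 91 at 6 h, 52 to 64 at 48 h, 67 to 75 at 72 h and 42 to 50 from 48 to 72 h. Those called lower ranged from 8 to 13, 16 to 23, 6 to 13 and 16 to 26. With the replicate number as a block the counts higher and lower were 88 and 11 at 6 h, 63 and 23 at 48 h, 76 and 12 at 72 h, and 50 and 23 from 48 to 72 h, no evidence on pairing. Of 143 called changes of 60 named genes, 84 were called in the same direction in every alternative and 55 lost their call in at least 1. Median centring reversed 11, and no other alternative reversed any. At 72 h against the control these were CFBP1 (-0.23), OsAMT1;2 (-0.18), OsCIPK17 (-0.13), PDX11 (-0.26), RAB16D (-0.028), OsCIPK32 (-0.16) and CBL2 (-0.28), and against 48 h MRS2-A (-0.10), OsCIPK17 (-0.15), PDX12 (-0.17) and CBL2 (-0.0004). Centring lowers all such changes alike, by construction. For family genes outside the set, 75 to 95 rose and 59 to 73 fell at 24 h over alternatives chosen after seeing the data. MAS5 signals near 0 are noisy, so ratios of dim genes are wide.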
